A study of Homo sapiens with 7 samples.

Results

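The genes described here are 10 core genes of transforming growth factor beta (TGF-beta) signalling: the ligands TGFB1, TGFB2 and TGFB3, the receptors TGFBR1, TGFBR2 and TGFBR3, and the SMADs SMAD2, SMAD3, SMAD4 and SMAD7. They were taken by symbol from a table of 20423 genes, in which all 10 were found, each in 1 row. The table comes from 1 polyA RNA-seq library of HCT116. This established line came from a human colon carcinoma, has no working mismatch repair and carries a frameshift in TGFBR2. The other samples of the study map piggyBac transposon insertions made by the wild-type transposase or by a fusion to the transcription factor SP1, and SP1 binding, in the same line. Those positions were given on the hg18 genome. Without gene coordinates of that build they could not be placed at these genes and are not analysed here. Per the labels, the cells were grown in serum-containing medium, and no treatment with TGF-beta is named. With 1 library there is no group to compare with, no spread between samples and no test, so every value below is a description of that library. A ratio between 2 genes has no replicate check.

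TGF-beta ligands are made as latent precursors, cut by proteases such as furin and held in the matrix until they are released. The active ligand binds the type II receptor TGFBR2, which phosphorylates the type I receptor TGFBR1, and TGFBR1 in turn phosphorylates SMAD2 and SMAD3. These join SMAD4, enter the nucleus and act on target genes, while SMAD7, itself a target, blocks the receptor and closes the loop. In the intestinal epithelium the pathway restrains growth. The coding sequence of TGFBR2 holds a run of adenines that gains or loses a base in many colon tumours without mismatch repair.

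SP1, the factor that the study mapped, binds GC boxes, and the promoters of the 10 genes were therefore read for the core of that motif. The sequences below are the bases just before the start site that lies farthest upstream, for the highest and the lowest ligand, for the type II receptor and for the 2 SMADs that this receptor pathway phosphorylates. They come from RefSeq on GRCh38.p14 and read 5′ to 3′ on the strand of the gene. Capitals mark the GC box core GGGCGG on either strand (CCGCCC on the printed one) and, in TGFB2, the TATA box core TATAAA.
TGFB1, chr19:41353923-41354172, minus strand: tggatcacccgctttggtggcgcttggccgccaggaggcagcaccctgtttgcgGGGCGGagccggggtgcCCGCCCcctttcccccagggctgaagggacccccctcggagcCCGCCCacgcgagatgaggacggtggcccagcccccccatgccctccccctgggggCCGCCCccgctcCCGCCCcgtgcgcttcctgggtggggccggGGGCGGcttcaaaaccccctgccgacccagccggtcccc
TGFB2, chr1:218345086-218345335, plus strand: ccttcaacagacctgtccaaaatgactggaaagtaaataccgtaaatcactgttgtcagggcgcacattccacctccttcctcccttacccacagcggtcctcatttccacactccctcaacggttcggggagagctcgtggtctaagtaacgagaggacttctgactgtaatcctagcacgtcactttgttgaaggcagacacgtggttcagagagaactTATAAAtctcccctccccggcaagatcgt
TGFBR2, chr3:30606106-30606355, plus strand: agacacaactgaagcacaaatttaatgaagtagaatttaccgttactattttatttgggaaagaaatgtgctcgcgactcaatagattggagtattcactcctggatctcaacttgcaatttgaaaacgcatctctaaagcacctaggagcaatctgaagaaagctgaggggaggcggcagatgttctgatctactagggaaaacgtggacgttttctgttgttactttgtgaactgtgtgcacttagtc
SMAD2, chr18:47930873-47931122, minus strand: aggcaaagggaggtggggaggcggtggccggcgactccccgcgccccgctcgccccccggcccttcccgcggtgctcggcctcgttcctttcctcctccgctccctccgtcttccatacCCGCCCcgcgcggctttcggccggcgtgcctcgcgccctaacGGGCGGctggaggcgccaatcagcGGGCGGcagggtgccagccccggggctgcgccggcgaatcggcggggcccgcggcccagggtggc
SMAD3, chr15:67065352-67065601, plus strand: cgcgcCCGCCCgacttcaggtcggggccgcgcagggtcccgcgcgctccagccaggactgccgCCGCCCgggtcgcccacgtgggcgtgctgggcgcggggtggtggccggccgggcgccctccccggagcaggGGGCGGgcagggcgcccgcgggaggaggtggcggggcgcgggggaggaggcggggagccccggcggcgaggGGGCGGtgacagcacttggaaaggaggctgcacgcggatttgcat

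The stretch before TGFB1 holds 6 GC box cores, that before SMAD3 holds 4 and that before SMAD2 holds 3. The stretches before TGFB2 and TGFBR2 hold none. How these matches sit beside the levels is given after the levels.

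Levels are in RPKM, reads scaled to gene length and to library depth, as the authors deposited them, so they can be set side by side between genes of different length. The 10 genes spanned a 261-fold range, from 32.4 RPKM for TGFB1 to 0.124 RPKM for TGFB2. In order of level they were TGFB1, SMAD3, TGFBR2, SMAD4, SMAD2, TGFBR1, SMAD7, TGFBR3, TGFB3 and TGFB2. TGFB1, SMAD3 and TGFBR2 lay above the upper quartile of all genes, 9.67 RPKM. With SMAD4 and SMAD2, 5 members lay above the median gene (1.91 RPKM) and 5 below it. Of the 10, 8 had at least 1 RPKM, a level that 57.0% of all genes reached, and 3 had at least 10 RPKM, which 24.4% of all genes reached. None was listed at 0, as 16.6% of all genes were. The median of the 10 was 2.84 RPKM, and the median member stood above 54.3% of all genes. The median member was thus close to a typical gene of the table, while single members lay far above and below it.

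**Figure D1:**
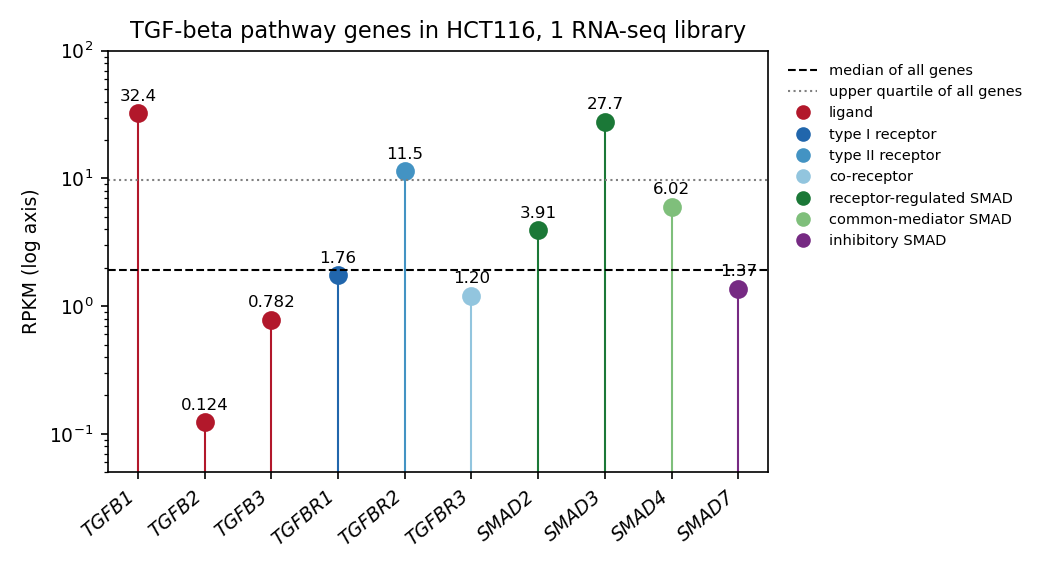
RPKM (log axis) of each of the 10 genes in the single HCT116 RNA-seq library, coloured by role, with the median (dashed) and upper quartile (dotted) of all 20423 genes. TGFB1 at 32.4, SMAD3 at 27.7 and TGFBR2 at 11.5 RPKM stand above the upper quartile of 9.67, and TGFB2 at 0.124 RPKM is lowest. There are no error bars because there is 1 library.

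How many reads the low values rest on can only be estimated. The value of 1 read was estimated from genes with mostly a single coding exon. RPKM times current gene length in kb was 0.0429 within 0.2% in 8 of 66 genes above 0. The 66 were olfactory, taste or trace amine receptor and interferon genes. Counting those at the product itself, 13 of the 66 lay within 0.2% of 1 to 4 times it, and most lay at none of these multiples. If that product stands for 1 read, 1 RPKM is 23.3 reads per kb of transcript. This reading was chosen after the values were seen, and the lengths are those of GRCh38, not of the build used by the authors. TGFB2 then rests on 2.89 reads per kb and TGFB3 on 18.2. TGFBR3, SMAD7 and TGFBR1 rest on 28.1, 32.0 and 40.9 reads per kb, and TGFB1 and SMAD3 on 755 and 647. Adjacent members such as TGFB1 and SMAD3 (ratio 1.17), SMAD7 and TGFBR3 (1.14) and TGFBR1 and SMAD7 (1.28) were close in level, and whether they would keep this order in another library was not tested.

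Among the ligands, TGFB1 made up nearly all of the message. TGFB1 stood at 32.4 RPKM, rank 1775 of 20423 and above 91.3% of genes. TGFB3 stood at 0.782 RPKM (rank 12070), 41.5-fold lower than TGFB1. TGFB2 stood at 0.124 RPKM (rank 14489), a further 6.30-fold lower. Of the summed RPKM of the 3 ligands, 97.3% was TGFB1, 2.35% TGFB3 and 0.372% TGFB2. TGFB1 was 17.0 times the median gene, and TGFB2 0.0650 times. The 3 mature ligands are closely related proteins that act through the same receptors, although TGFB2 binds TGFBR2 weakly unless the co-receptor TGFBR3 presents it. TGFB2 and TGFBR3 both lay below the median gene. The antisense gene TGFB2-AS1 overlaps the start of TGFB2 on GRCh38, and without a stated strand setting its reads cannot be told from those of TGFB2.

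Among the receptors TGFBR2, the one mutated in this line, was the highest. TGFBR2, the type II receptor that binds ligand first, stood at 11.5 RPKM, rank 4540 and above 77.8% of genes. TGFBR1, the type I receptor kinase that passes the signal on, stood at 1.76 RPKM (rank 10431), just below the median gene. The ratio of TGFBR2 to TGFBR1 was 6.52. TGFBR3, also called betaglycan, a co-receptor without kinase activity, stood at 1.20 RPKM (rank 11288), 9.52-fold below TGFBR2. RPKM per gene does not tell a frameshifted transcript from an intact one, so the level of TGFBR2 says nothing about receptor protein.

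Among the SMADs, SMAD3 was far above its partner SMAD2. SMAD3 stood at 27.7 RPKM, rank 2078 and above 89.8% of genes, and SMAD2 at 3.91 RPKM (rank 8224, above 59.7%). The ratio was 7.09, and SMAD3 made up 87.6% of their sum. Both are phosphorylated by TGFBR1 at the C terminus, and SMAD3 binds DNA directly while the main form of SMAD2 does not. SMAD4, the shared partner that is lost in some colon tumours, stood at 6.02 RPKM (rank 6719), 1.54 times SMAD2 and 4.61-fold below SMAD3. SMAD7, the inhibitor induced by the pathway, stood at 1.37 RPKM (rank 10993), the lowest of the 4 and 20.2-fold below SMAD3.

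**Figure D2:**
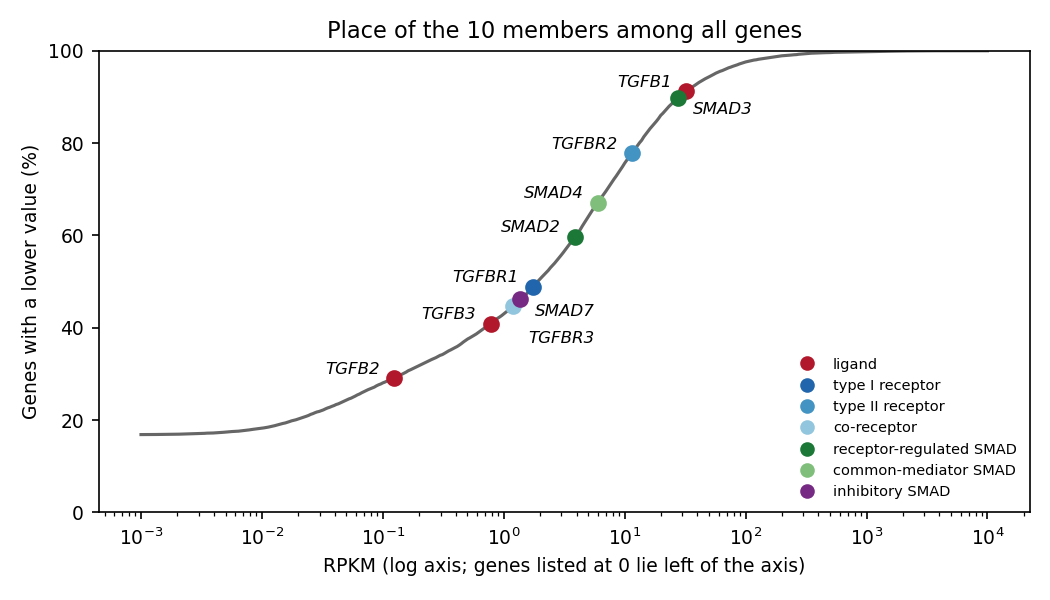
Share of all 20423 genes with a lower value (vertical axis, %) against RPKM (log axis); the grey line is all genes and the points are the 10 members. TGFB1 and SMAD3 lie together near 90%, at 91.3% and 89.8%, TGFBR2 at 77.8%, and TGFB2 lowest at 29.1%.

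The relatives of these genes in the activin and bone morphogenetic protein (BMP) branches give a scale. Of 7 type I receptors TGFBR1 was the fourth, behind ACVR1B, the activin receptor that also phosphorylates SMAD2 and SMAD3, at 10.3 RPKM, ACVR1 at 5.41 and BMPR1A at 2.28. Below it were ACVRL1 at 0.530 and ACVR1C at 0.141, and BMPR1B was listed at 0. ACVR1B was thus the type I receptor for SMAD2 and SMAD3 with the most message. Of 5 type II receptors TGFBR2 was the first, 11.5 RPKM against 2.10 for ACVR2B, 1.29 for BMPR2, 0.589 for ACVR2A and 0.115 for AMHR2. Of the 10 other receptors, 5 had at least 1 RPKM, near the 57.0% of all genes. A value of 0 in this table can be a failed estimate, since YWHAZ, which most cells express, was also listed at 0.

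Among 8 SMADs, SMAD3 was the first and SMAD4 the second. SMAD1 and SMAD5, which carry BMP signals, stood at 5.82 and 4.71 RPKM, close to SMAD4, and SMAD9, the other BMP SMAD, at 0.471. SMAD2 and SMAD3 together summed to 31.6 RPKM and SMAD1, SMAD5 and SMAD9 to 11.0, a ratio of 2.88. SMAD2 alone was below both SMAD1 and SMAD5, so the larger sum came from SMAD3. SMAD6, the inhibitor of the BMP branch, stood at 2.43 RPKM, above SMAD7.

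**Figure D3:**
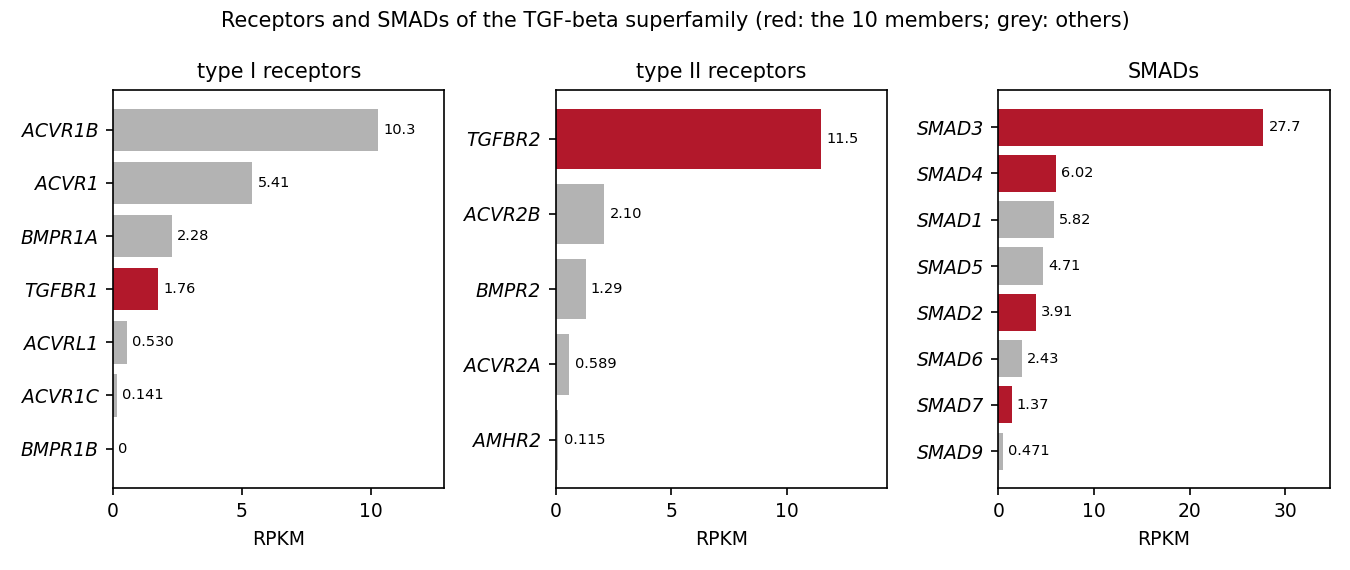
RPKM (linear axes from 0) of the type I receptors, type II receptors and SMADs of the superfamily, 1 library, ordered by level; red bars are members of the 10 and grey bars their relatives. TGFBR1 at 1.76 RPKM is the fourth of 7 type I receptors, TGFBR2 at 11.5 RPKM the first of 5 type II receptors and SMAD3 at 27.7 RPKM the first of 8 SMADs.

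Among 28 ligands of the superfamily in the table TGFB1 was the third. Above it stood GDF15, a distant member induced by stress, at 519 RPKM and rank 76 of all genes, and BMP4 at 44.1 RPKM. AMH followed TGFB1 at 19.4 RPKM. TGFB3 was the tenth and TGFB2 the sixteenth. Of the 25 other ligands 7 reached 1 RPKM, against 57.0% of all genes. At 0 were listed 6 of them, against 16.6% of all genes, among which are BMP3, BMP5, GDF3, GDF6 and INHA. The median of these 25 was 0.170 RPKM, close to TGFB2 and far below TGFB1.

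Genes that make or release active ligand were uneven. LTBP4, a latent TGF-beta binding protein of the matrix, stood at 55.9 RPKM, above TGFB1 itself, and FURIN, the protease that cuts the precursors, at 23.3. ITGAV, a subunit of the integrins that release latent TGF-beta, stood at 4.63 RPKM. LTBP3 was listed at 0. In all, 4 of these 10 genes had at least 1 RPKM, a level reached by 57.0% of all genes, and their median was 0.887. ITGB6 and ITGB8, the beta chains that pair with ITGAV for this task and were named after their values were seen, stood at 0.0716 and 0.249 RPKM.

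Among genes that act on the receptors and SMADs, 15 of 16 SMAD partners, co-repressors and ubiquitin regulators had at least 1 RPKM, beside 57.0% of all genes. Their median was 5.32 RPKM, beside 1.91 for all genes. The highest were FKBP1A, which binds the resting type I receptor, at 98.9 RPKM, STRAP, a receptor-associated protein that works with SMAD7, at 87.1, and TGIF1, a co-repressor of SMAD2 and SMAD3, at 76.7. Each of these was above every one of the 10 members. Of the other 3 receptor-level modulators BAMBI, a receptor decoy without a kinase, stood at 3.76 RPKM, above TGFBR1, ENG at 1.72 and TDGF1 at 0.00941.

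Known transcriptional targets of the pathway covered the whole range of levels. Of 18 such genes, SMAD7 among them, 14 had at least 1 RPKM and 9 at least 10 RPKM, beside 57.0% and 24.4% of all genes, and their median was 8.55. The highest were ID1, an inhibitor of basic helix-loop-helix factors and a classic BMP target, at 507 RPKM, MYC at 176 and CDKN1A, the p21 cell cycle inhibitor, at 155. At the other end, and named after their values were seen, TGFBI stood at 0.199, SNAI2 at 0.205, PMEPA1 at 0.555 and THBS1 at 0.956 RPKM. The list does not separate genes that the pathway raises from genes that it lowers. The listed genes answer to many other signals. No sample with added ligand or blocked receptor was compared, so their levels do not measure signalling.

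**Figure D4:**
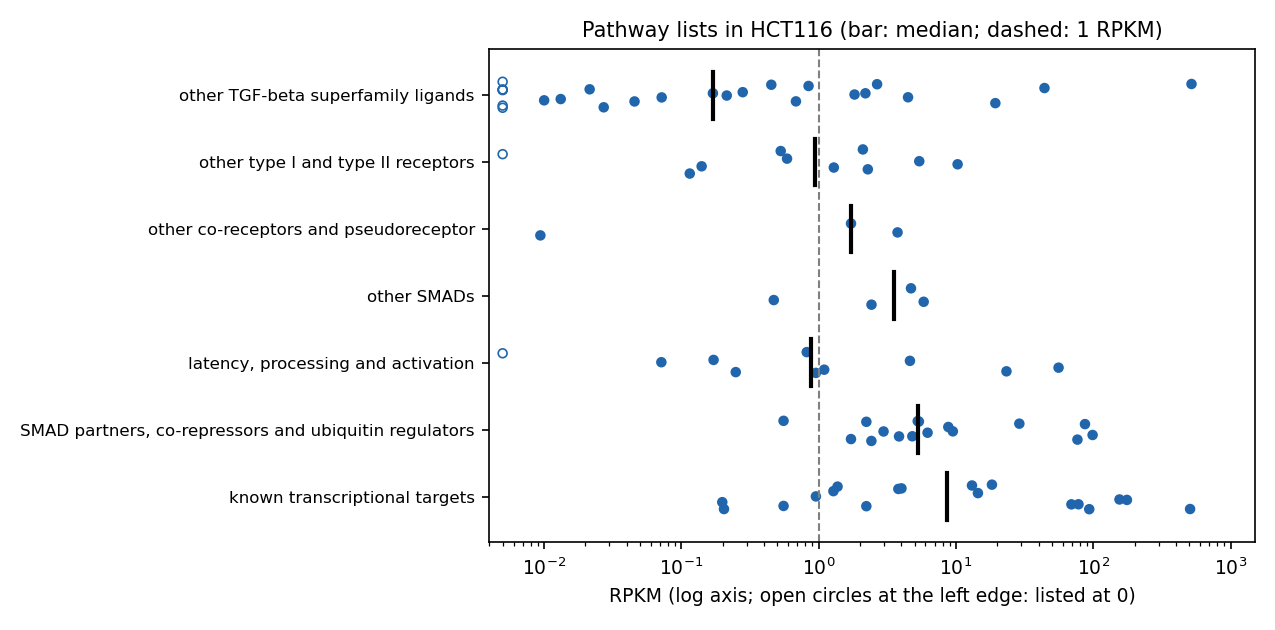
RPKM (log axis) of the genes of 7 pathway lists in the HCT116 library, 1 point per gene, with the median of each list (black bar) and the 1 RPKM level (dashed); open circles are genes listed at 0. The median is lowest for the other ligands at 0.170 RPKM and highest for the known targets at 8.55 RPKM.

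The label of the cells was checked on markers. Keratins KRT19, KRT8 and KRT18 stood at 543, 378 and 268 RPKM and EPCAM at 79.5, each above at least 96.7% of all genes. CDH1 and CDX2 stood at 17.0 and 9.19 RPKM. By count, 6 of 10 colon epithelial markers had at least 1 RPKM, close to the 57.0% of all genes. KRT20, VIL1 and CDX1, markers of differentiated colon cells, were at 0.238, 0.0313 and 0.0242 RPKM, and LGALS4 was listed at 0. All 5 endothelial and all 5 leukocyte markers were below 1 RPKM, with sums of 0.356 and 0.357. Of 7 fibroblast markers only COL1A1, at 14.5 RPKM, exceeded 1, while COL1A2 was at 0.0277 and DCN was listed at 0.

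The promoter windows, 250 bases before to 50 after each RefSeq start site, were found for all 10 genes, 26 windows in all. A GC box core was present in 11 of them and in 45.0% of all 35116 windows of the reference. By gene, 7 of 10 members had at least 1 window with it: TGFB1, TGFBR1, TGFBR2, TGFBR3, SMAD2, SMAD3 and SMAD4. That share is close to the 67.7% of the 12634 genes found in both the promoter and the expression table. TGFB1 had 7 cores in its single window, a number that 1.50% of all windows reached. SMAD3 had 5 in its first window, which 5.14% reached. These 2 windows were 77.3% and 80.3% G and C, beside a median of 58.7% over all windows. The sixth TGFBR1 window, at 78.7%, held no core. Base composition was not taken into account in the counts of cores. TGFBR1, at 1.76 RPKM, had up to 6 in a window, more than SMAD3, and a core in 4 of its 8 windows, which partly overlap, while in TGFBR2 only the second start site had any, with 2. Genes with more annotated start sites have more windows in which a match can fall.

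TGFB2, TGFB3 and SMAD7 had no GC box core in any window, and each had a TATA box core 29, 30 and 35 bases before a start site. They were 3 of the 4 lowest members, with TGFBR3, which has 2 GC box cores, as the other one. The range of 25 to 35 bases was set after these positions had been seen, and such a match was found in 3.73% of the 12634 genes. The bases around the match, with TATAAA in capitals, are shown for the 3 genes.
TGFB2, chr1:218345295-218345324, plus strand: tcagagagaactTATAAAtctcccctcccc
TGFB3, chr14:75982008-75982037, minus strand: atgggagggaggTATAAAatttcagcagag
SMAD7, chr18:48949351-48949380, minus strand: ggagaggcgtgcTATAAAggctggaaggtc

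The 7 members with a GC box core had a median of 6.02 RPKM and the 3 without 0.782. Over all 12634 genes the medians were 4.89 and 0.243 RPKM, and 73.5% of genes with a core against 39.0% without had at least 1 RPKM. Genes with a TATA box core at that distance had a median of 0.130 RPKM and the rest 3.13. The direction among the members depended on the motif. The longer GC box GGGGCGGGG, tried after the data were seen, matched only TGFBR1 among the members and 28.3% of the 12634 genes. TGFBR1 stood at 1.76 RPKM against a median of 3.91 for the other members. Over all genes the medians were 5.79 with that motif and 1.87 without. Within the 7, the number of cores and the level ran together in some genes and not in others, and no association was computed. By the window with the most cores, TGFB1 had 7 at 32.4 RPKM, SMAD3 5 at 27.7 and TGFBR3 2 at 1.20. TGFBR1 had 6 at 1.76 RPKM, SMAD2 4 at 3.91 and SMAD4 2 at 6.02. TGFBR2, at 11.5 RPKM, had none at its first start site and 2 at its second. The palindrome GTCTAGAC, which SMAD3 and SMAD4 bind, was in no window of the 10 genes and in 0.202% of all windows. It is too rare for its absence from so few windows to tell anything, and shorter forms of the motif were not searched. A match is a run of letters and was not tested as a binding site.

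**Figure D5:**
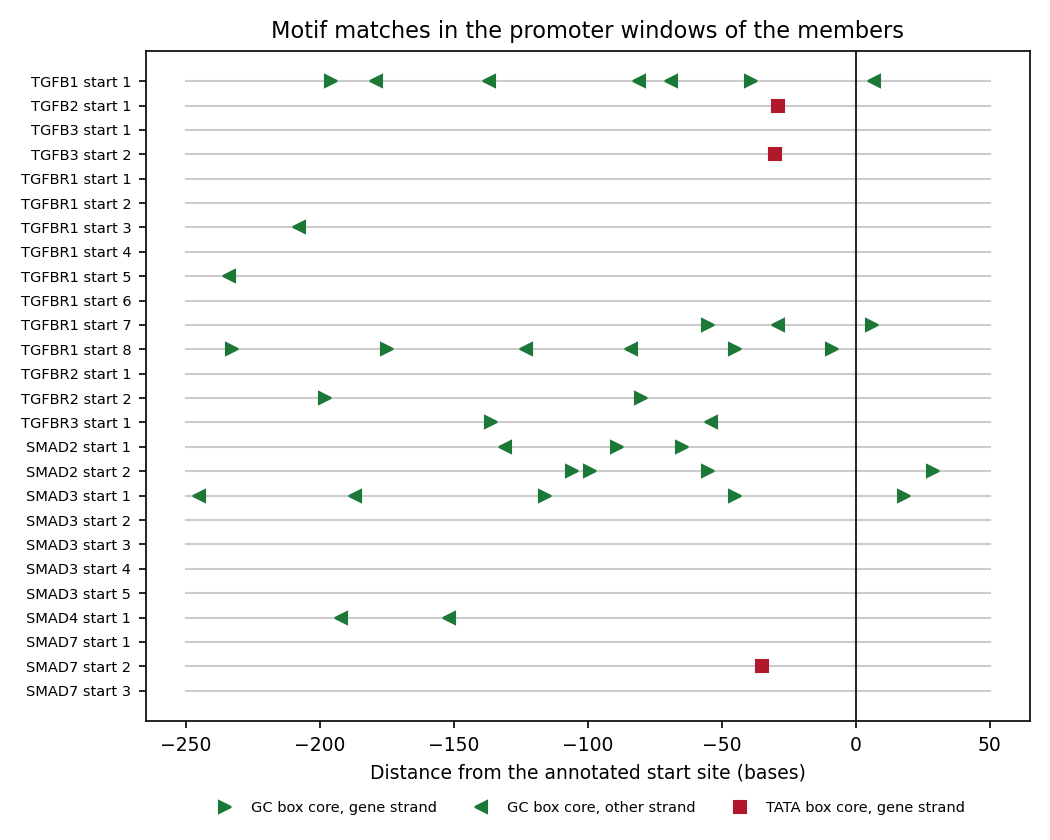
Matches to the GC box core (green, pointing right on the strand of the gene and left on the other) and to the TATA box core (red squares) in the 26 promoter windows of the 10 genes, by distance of the first base from the annotated start site, with start sites numbered from the farthest upstream. TGFB1 holds 7 GC box cores and SMAD3 holds 5 at its first start site, while TGFB2, TGFB3 and SMAD7 hold a TATA box core and no GC box core.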

How the data were processed

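RNA was measured in 1 polyA library of HCT116. Per the deposited readme, the authors aligned reads to hg18 with TopHat and computed RPKM per RefSeq gene with Cufflinks. The submitters' processing notes give version 1.1.0 for Cufflinks. RPKM is already scaled for length and depth, counts and gene coordinates are not given, and no strand setting is stated. Ranks were taken over all 20423 genes, ties at their mean rank. Log2 ratios between 2 genes used a pseudocount of 0.1, and those between medians of members used none. No test, interval or SD was computed, since there is 1 library. Ranking and motif search were tested on simulated data. Promoter windows of 300 bases came from RefSeq (GRCh38.p14), matched by symbol. The members and lists were chosen with earlier results of these data known. Named were all 10 members, the 3 highest of each pathway list, up to 5 of its genes listed at 0 and every other receptor and SMAD. The rule did not cover the cell type markers, and those named were chosen after their values were seen. The planned list of mismatch repair genes is not reported here. 5 ligands and 1 fibroblast marker of the lists are not analysed here. Insertion and peak files were not used, so the planned count of insertions and peaks at these genes was not run. Computations used Python 3.11.15 and pandas 2.3.3.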

Additional observations from a re-analysis of the deposited data

How the results depend on the processing

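Of 70 alternative values 39 stayed within 1.5 times, 30 moved and 1 turned its direction. The last was the log2 ratio of the median RPKM of members with to members without a GC box core, which was 2.95, and -1.16 with GGGGCGGGG as the GC box. The count includes outcomes fixed in advance. The rank of a member could not change when genes at 0 were left out, since no member is listed at 0. The rescaled RPKM of every member was bound to move, since 1 factor of 2.92 applies to all. At a threshold of 5 RPKM, 4 of the 10 members passed in place of 8. So did 3 of 25 other ligands, 2 of 10 other receptors, 0 of 3 co-receptors and 1 of 4 other SMADs. Of the latency genes 2 of 10 passed, of the regulators 9 of 16 and of the targets 9 of 18. The share of all genes at 5 RPKM was not computed. It lies between the 57.0% at 1 RPKM and the 24.4% at 10 RPKM. With genes below 1 RPKM left out of the ranking, the median percentile of the 8 members that remained was 35.8. The main value of 54.3 covers all members, so the 2 values are not for the same set. The log2 ratio of TGFB1 to TGFB2 was 7.18, and 4.89 and 7.92 with pseudocounts of 1 and 0.01. That of TGFB3 to TGFB2 was 1.98, and 0.66 and 2.56. With a pseudocount of 1 the log2 ratio of TGFB1 over TGFB3 was 4.23, TGFBR2 over TGFBR3 2.50 and SMAD3 over SMAD7 3.60. Rescaling all genes to the fixed sum used for TPM multiplies every value by 2.92 and changes no order. The motif GGGGCGGGG, chosen after seeing the data, matched 1 member (TGFBR1) and 28.3% of the 12634 genes. Genes without that motif had a median of 1.87 RPKM. With only the farthest upstream window, chosen likewise, 5 members matched GGGCGG, beside 61.4% of the 12634 genes. The log2 ratio of members with to members without a match was then 2.13. Genes without a match had a median of 0.474 RPKM. No symbol had several rows, so summing rows was not needed. The insertion and peak alternatives were not run. No paired analysis was possible, since there is 1 RNA library and the labels name no pairs among the insertion libraries. The comparison of insertions between groups needs hg18 gene coordinates, which were not used here.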

Other observations

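Of 7 secreted antagonists of the superfamily, a list chosen after the data had been seen, 2 had at least 1 RPKM, beside 57.0% of all genes: FSTL3, which binds activins, at 15.9 RPKM and CHRD, which binds BMPs, at 4.47. NOG stood at 0.136 and FST at 0.0389 RPKM, and GREM1 was listed at 0. FSTL3 was above TGFBR2 and below SMAD3.

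The 3 genes below, not members but with TGF in their symbols, lay between TGFB3 (0.782 RPKM) and TGFB1 (32.4 RPKM) in level. TGFA, a ligand of the EGF receptor, stood at 19.2 RPKM, TGFBRAP1, a receptor-associated protein, at 7.82 and TGFB1I1, a focal adhesion protein, at 4.05.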
